A study of Mus musculus with 11 samples.

Results

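Distal chromosome 8 is the stretch of mouse chromosome 8 that starts 80 Mb from its first base, and it was examined because its genes stood higher in both Ung knockout clones than in the control line. The genes were chosen by position in the deposited expression table: chromosome 8, a gene start of at least 80 Mb, and an average of 0.5 FPKM or more across the 11 libraries. FPKM is the number of sequenced fragments scaled by gene length and library depth. A window of 12 tested genes, from Zc3h18 (start 122376609) to Acsf3 (start 122775486), was left out. Of 404 listed distal genes, 84 fell below the minimum, and 320 were kept, out of 11323 genes that passed the same minimum on all chromosomes. Of the 320, 291 were protein-coding by the gene types of the deposited table. The 29 others were mostly long noncoding RNAs, pseudogenes or small RNAs. Positions are those of the deposited table, which match the GRCm38 build for 14012 of its 14528 rows.

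All libraries came from B16F10, a mouse melanoma line grown in culture. The compared lines were the Ung knockout clones ΔUNG and ΔUNG_2 and a Cas9 control that the labels call wild type. Each line received 5 µM of the ATR inhibitor AZD6738 (ATRi) or the solvent DMSO for 48 h. There were 2 libraries in each group except ΔUNG_2 ATRi, which had 1 and is assumed in the tests to vary like the others. Each clone is 1 isolate and there is 1 control line, so loss of Ung and descent from a single cell cannot be told apart here. DNA was not measured in the files used here. In bulk RNA, fewer cells that use a gene and less RNA per cell cannot be told apart.

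Tumour cell lines often carry chromosome arms in extra or missing copies, and cells taken through cloning can differ from one another in such copies. RNA of most genes follows the number of gene copies roughly in proportion, while feedback, promoter activity and RNA decay hold some genes away from that proportion. UNG removes uracil from DNA, and ATR is the checkpoint kinase that restrains DNA replication under stress. The distal end of mouse chromosome 8 holds genes of very different roles, among them Mc1r (the melanocortin receptor of pigment cells), Calr (the chaperone calreticulin), Fanca (a Fanconi anaemia repair protein), Itgb1 (integrin beta 1) and Rpl13 (a ribosomal protein).

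Upstream sequences are shown for 6 of these genes: Herpud1, an endoplasmic reticulum stress gene from the stretch with the highest clone levels, and Cenpn, Asf1b, Orc6, Gins3 and Fanca, genes of replication, chromosome segregation and repair whose levels fell under ATRi. Each is the 250 bases before the start that RefSeq gives on GRCm38.p6, 5′ to 3′ on the gene's strand. Capitals mark the letters of 5 motifs on either strand: the GC box GGGCGG, the CCAAT box CCAAT, the TATA box TATAAA, the cell cycle homology region TTTGAA and the endoplasmic reticulum stress response element II, which begins with a CCAAT box on the other strand. The windows were chr8:94386179-94386428 (plus strand) for Herpud1, chr8:116921490-116921739 (plus strand) for Cenpn, chr8:83955444-83955693 (plus strand) for Asf1b, chr8:85299382-85299631 (plus strand) for Orc6, chr8:95633309-95633558 (plus strand) for Gins3 and chr8:123318577-123318826 (minus strand) for Fanca.
Herpud1: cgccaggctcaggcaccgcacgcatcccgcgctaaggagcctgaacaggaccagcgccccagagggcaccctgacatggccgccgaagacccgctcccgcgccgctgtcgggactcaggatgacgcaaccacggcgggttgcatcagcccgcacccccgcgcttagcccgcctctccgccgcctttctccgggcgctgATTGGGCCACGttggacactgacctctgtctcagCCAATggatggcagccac
Cenpn: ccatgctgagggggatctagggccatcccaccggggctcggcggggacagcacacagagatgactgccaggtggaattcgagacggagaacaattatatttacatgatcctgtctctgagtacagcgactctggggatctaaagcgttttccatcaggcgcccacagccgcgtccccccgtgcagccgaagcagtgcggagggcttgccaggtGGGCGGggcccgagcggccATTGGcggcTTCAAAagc
Asf1b: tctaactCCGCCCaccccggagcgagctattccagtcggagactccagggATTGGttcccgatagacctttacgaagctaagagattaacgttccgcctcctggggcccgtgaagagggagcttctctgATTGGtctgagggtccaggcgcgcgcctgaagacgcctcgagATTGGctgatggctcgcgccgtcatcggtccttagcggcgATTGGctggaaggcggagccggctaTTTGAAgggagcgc
Orc6: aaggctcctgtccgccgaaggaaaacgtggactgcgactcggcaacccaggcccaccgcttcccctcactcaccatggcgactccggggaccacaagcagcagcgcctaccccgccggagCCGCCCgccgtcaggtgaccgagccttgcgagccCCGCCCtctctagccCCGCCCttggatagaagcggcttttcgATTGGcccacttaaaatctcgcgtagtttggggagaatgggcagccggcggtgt
Gins3: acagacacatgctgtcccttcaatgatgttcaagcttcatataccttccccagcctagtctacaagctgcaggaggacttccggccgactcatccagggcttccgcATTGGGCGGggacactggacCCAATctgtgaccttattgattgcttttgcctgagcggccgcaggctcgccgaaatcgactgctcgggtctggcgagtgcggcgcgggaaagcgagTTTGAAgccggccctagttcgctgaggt
Fanca: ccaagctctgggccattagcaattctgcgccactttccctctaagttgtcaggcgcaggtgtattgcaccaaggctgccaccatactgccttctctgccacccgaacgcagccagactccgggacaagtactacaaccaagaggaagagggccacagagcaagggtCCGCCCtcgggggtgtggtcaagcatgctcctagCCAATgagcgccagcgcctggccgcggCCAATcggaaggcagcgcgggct
Each of the 6 windows held a CCAAT box, and the Asf1b window held 4. Cenpn, Asf1b and Gins3 also held the cell cycle homology letters. The 6 genes were picked with their levels known. Other genes that fell under ATRi are not shown, so the 6 windows do not stand for that group. The stress element II letters were in the Herpud1 window, and in no other window of the distal genes. A RefSeq window lay within 1000 bases of the deposited start for 215 of the 320 genes and for 7616 of all genes tested. GC boxes were in 63.7% of the distal windows and in 62.8% of those 7616. CCAAT boxes were in 33.5% of distal windows and 37.5% of all, and TATA boxes in 6.51% and 5.62%. The cell cycle letters were in 7.44% of distal windows and 9.72% of all, and the stress element in 0.465% and 0.0788%. These matches are descriptions of letters only.

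Libraries held 15980684 to 26861794 fragments on listed genes, rebuilt from FPKM and gene length, and 45692790 to 74973328 clean reads. Melanoma markers were high in every library, with Pmel, a melanosome matrix protein, at 1348 to 2100 FPKM and Mlana, a melanosome protein, at 1035 to 1855 FPKM. The endothelial marker Pecam1 was at most 0.152 FPKM and the keratinocyte marker Krt5 at most 0.297 FPKM. Ung had 1.39 and 0.774 FPKM in ΔUNG DMSO, 2.01 and 1.78 FPKM in ΔUNG_2 DMSO, and 2.86 and 2.48 FPKM in Cas9 control DMSO. Under ATRi, Ung had 1.27 and 0.675 FPKM in ΔUNG, 1.74 FPKM in ΔUNG_2, and 2.557 and 2.999 FPKM in the control. Ung RNA was lower in every clone library than in every control library, and it does not measure the protein.

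The distal genes as a group took a larger share of RNA in both clones, with and without ATRi. In DMSO they held 2.61% and 2.58% of the fragments on tested genes in ΔUNG and 2.57% and 2.60% in ΔUNG_2, against 2.01% and 1.99% in the Cas9 control. Under ATRi they held 2.59% and 2.58% in ΔUNG and 2.68% in ΔUNG_2, against 2.03% and 2.02% in the control. Every clone library lay above every control library. The genes of the same chromosome before 80 Mb, 299 in number, held 2.03% to 2.16% in the clones and 2.18% to 2.24% in the control. Since these shares led to the choice of the region, they are a description, and no test was made of the clones against the control.

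**Figure D1:**
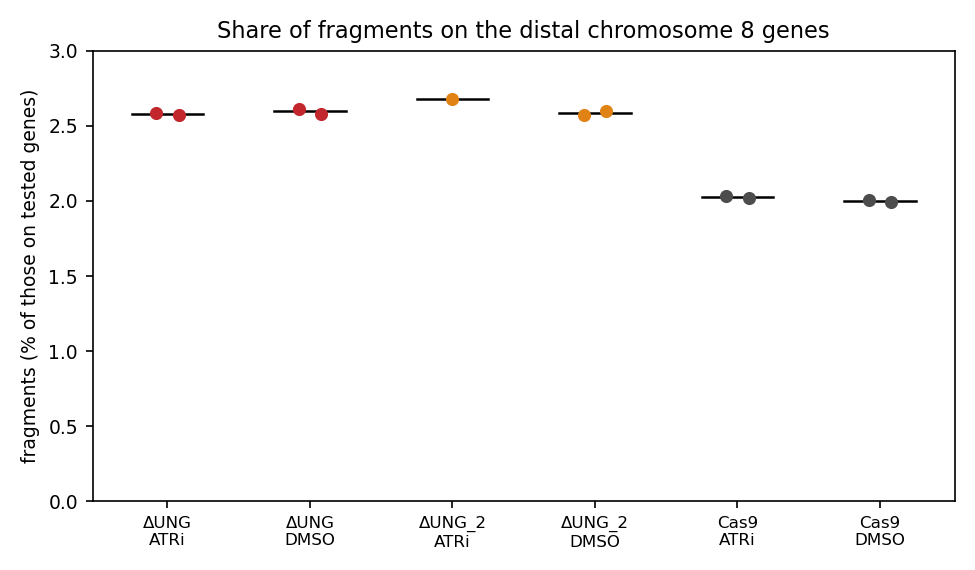
Percent of the fragments on all tested genes that fell on the 320 distal chromosome 8 genes. Each point is 1 library and each bar the mean of its group. Clone libraries sit between 2.57% and 2.68%, control libraries between 1.99% and 2.03%.

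Most distal genes were moderately higher in each clone. The median log2 fold change over the 320 genes was 0.35 for ΔUNG and 0.34 for ΔUNG_2 in DMSO, ratios of 1.28 and 1.26. Under ATRi it was 0.32 for ΔUNG and 0.40 for ΔUNG_2, ratios of 1.25 and 1.32. Over all 11323 genes tested the medians lay between -0.01 and 0.00. Fold changes are differences of group means of log2(FPKM + 0.5), and the added 0.5 understates changes of genes with low values. The range between the quartiles of the distal genes was 0.20 to 0.51 and 0.18 to 0.47 in DMSO, and 0.16 to 0.47 and 0.22 to 0.57 under ATRi, for ΔUNG and then ΔUNG_2. The difference was therefore shared by most genes and did not rest on a few. In DMSO the median was 0.35 and 0.34 over the 291 protein-coding genes, and 0.10 and 0.14 over the 29 others, in the same order of clones.

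Of the 320 genes, 259 were above the control in both clones and both treatments, 7 were below it in all 4 contrasts, and 54 were mixed. Of all 11323 genes tested, 2168 were above the control in all 4 contrasts and 2251 were below it in all 4. In DMSO every ΔUNG library was above every control library for 256 distal genes and below for 13, where the same counts over all genes tested were 28.1% above and 26.3% below. For ΔUNG_2 in DMSO the counts were 252 and 18, against 28.5% and 30.2% of all genes. Under ATRi the counts were 241 and 13 for ΔUNG, against 22.9% and 26.8%. For ΔUNG_2, with 1 ATRi library, they were 277 and 20, against 38.7% and 38.1%. These counts come from the contrasts that chose the region, so nothing further is read from them. The 4 contrasts share control libraries within each treatment.

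The difference was present at all expression levels. With the genes split by mean FPKM into 107 low, 106 middle and 107 high ones, the medians for ΔUNG in DMSO were 0.27, 0.34 and 0.39, and for ΔUNG_2 they were 0.32, 0.31 and 0.38. Genes on both strands were raised, with medians of 0.32 and 0.34 on the plus strand and 0.36 and 0.34 on the minus strand. Across the 320 genes, the fold changes in DMSO and under ATRi had a Pearson correlation of 0.543 for ΔUNG and 0.514 for ΔUNG_2. Both fold changes come from the contrasts that chose the region, and the genes share libraries. The correlation is a description only, and it was not set beside that over all genes tested. Of the other chromosomes, chromosome 12 had medians of 0.21 to 0.24 over its 436 genes, and the remaining 18 lay between -0.10 and 0.05.

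Along the chromosome the difference came in steps. The 5 Mb windows before 80 Mb that held at least 10 genes, 10 in number, had medians between -0.17 and 0.10. Otud4, Tpd52-ps and Abce1, the last tested genes before the boundary, had means over the 4 clone contrasts of -0.08, -0.13 and -0.14, and Smarca5, the first gene after it, had 0.03. The limits of the stretches described next were drawn after the values were seen, so they carry no test.

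The first 7 genes, from Smarca5 (start 80698507) to Tbc1d9 (start 83165352), showed no common rise: their median was 0.03 for ΔUNG and -0.07 for ΔUNG_2 in DMSO, and 0.12 and 0.05 under ATRi. Smarca5, a chromatin remodelling ATPase, had 27.5 and 30.9 FPKM in ΔUNG DMSO, 27.3 and 28.5 FPKM in ΔUNG_2 DMSO and 25.8 and 28.3 FPKM in the control. Those libraries overlapped. From Elmod2 (start 83312632) to Irx3 (start 91798525), 71 genes had medians of 0.32 and 0.33 in DMSO and 0.34 and 0.38 under ATRi, ratios of 1.25 to 1.30, and 64 of them were above the control in all 4 contrasts. Calr, in that stretch at chr8:84841850-84846934 (minus strand), had 251 and 291 FPKM in ΔUNG DMSO, 233 and 236 FPKM in ΔUNG_2 DMSO and 198 and 226 FPKM in control DMSO. The clone libraries of Calr all stood above the control libraries, by a smaller margin in ΔUNG_2.

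The highest stretch was the next one. From Crnde (start 92326033) to Got2 (start 95864134), 41 genes had medians of 0.63 and 0.61 in DMSO and 0.61 and 0.61 under ATRi, ratios of 1.53 to 1.55, and 37 were above the control in all 4 contrasts. From Impdh2-ps (start 100030558) to Gm6793 (start 112013433), 101 genes returned to 0.33 and 0.31 in DMSO and 0.30 and 0.38 under ATRi. The 20 genes from Mon1b (start 113635587) to Taf1c (start 119597871) then lay near the control, with 0.11 and -0.04 in DMSO and -0.02 and 0.09 under ATRi, and 5 of them were above it in all 4 contrasts. From Wfdc1 (start 119666365) to Itgb1 (start 128685654), 77 genes had 0.39 and 0.38 in DMSO and 0.35 and 0.46 under ATRi, of which 67 were above the control in all 4. The last 3 genes, from 2610044O15Rik8 to Gm32856, had 1 gene above the control in all 4 and medians of -0.30 to -0.13.

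**Figure D2:**
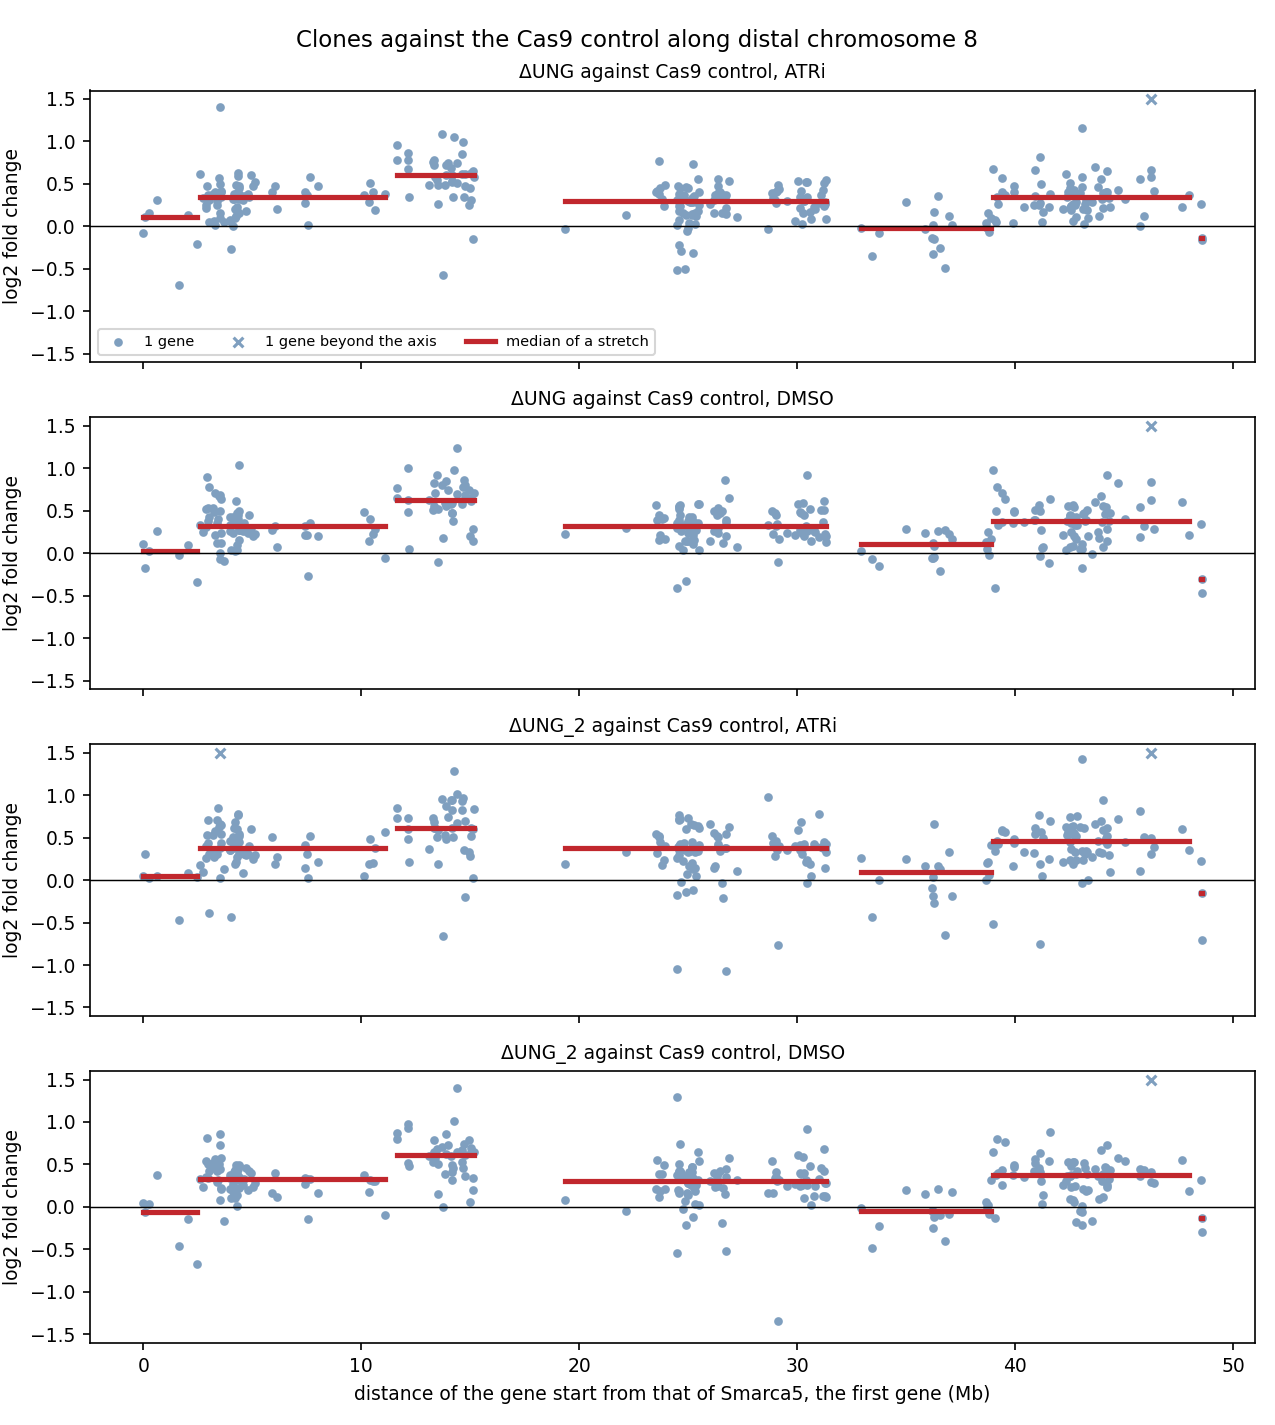
Log2 fold change of each distal gene, clone against Cas9 control, by distance of its start from that of Smarca5 in Mb, with 1 panel per clone and treatment. Points are genes, crosses are genes beyond the axis, and red lines are stretch medians, which are highest (0.61 to 0.63) in the stretch of 41 genes from Crnde to Got2 in each panel.

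The steps were also seen in single libraries. These are the libraries whose values were used to draw the limits, so the values by library are a description. Relative to the mean of the control libraries of the same treatment, the median of the 41 genes from Crnde to Got2 lay between 0.58 and 0.69 in the 7 clone libraries. The same median lay between 0.29 and 0.38 for Elmod2 to Irx3, between 0.29 and 0.38 for Impdh2-ps to Gm6793, and between 0.33 and 0.46 for Wfdc1 to Itgb1. For Mon1b to Taf1c it lay between -0.09 and 0.12, and for the genes of chromosome 8 before 80 Mb between -0.04 and 0.01. In each clone library the Crnde to Got2 median was the highest of these. Single control libraries departed from their own mean by at most 0.05 in the stretches of 7 or more genes. The control libraries of a treatment are centred on 0 by construction, so this understates how far they differ from each other.

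**Figure D3:**
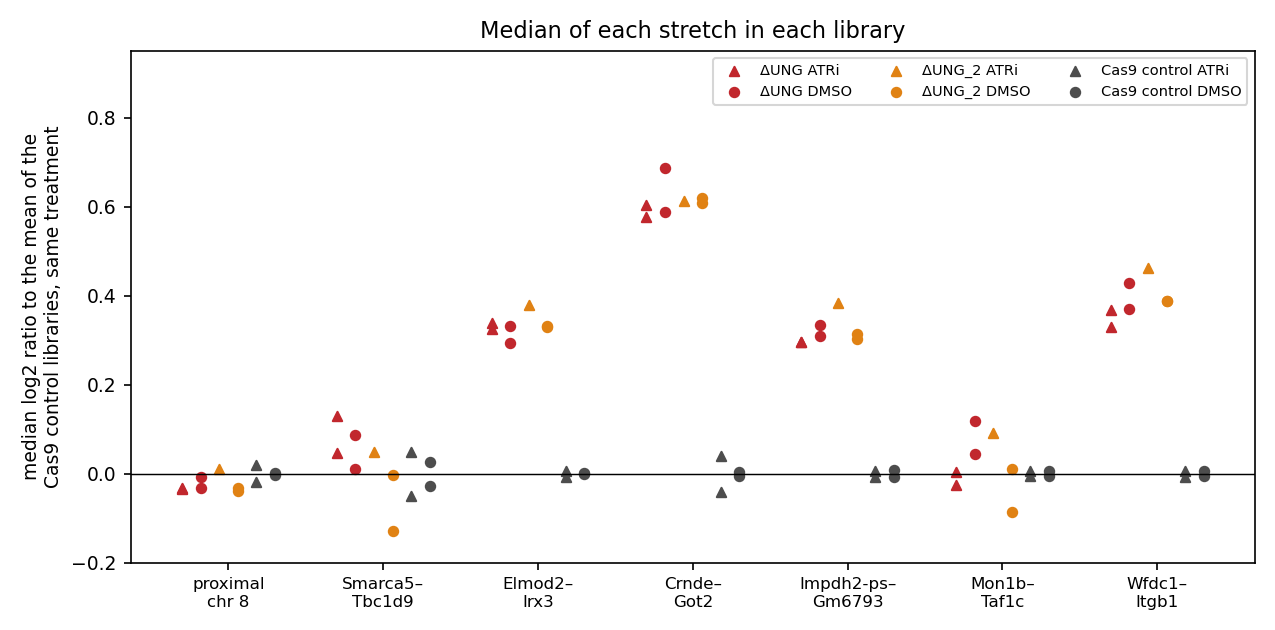
Median log2 ratio of the genes of each stretch to the mean of the Cas9 control libraries of the same treatment. Each point is 1 library, triangles are ATRi and circles are DMSO. Clone libraries lie at 0.58 to 0.69 for Crnde to Got2 and at -0.09 to 0.12 for Mon1b to Taf1c. The control libraries plotted, which are centred on 0 by construction, lie within 0.05 of it.

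The 5 distal genes that led by the smallest of their 4 clone fold changes all lay in the highest stretch (mean of at least 1 FPKM, predicted genes and pseudogenes left out). Adgrg1, an adhesion G protein-coupled receptor at chr8:94974751-95014217 (plus strand), had 50.4 and 47.4 FPKM in ΔUNG DMSO, 50.2 and 50.3 FPKM in ΔUNG_2 DMSO and 24.7 and 24.6 FPKM in control DMSO. With ATRi it had 47.4 and 48.7 FPKM in ΔUNG, 56.4 FPKM in ΔUNG_2 and 24.1 and 21.8 FPKM in the control. Each clone library of Adgrg1 was far above each control library, with log2 fold changes of 0.98, 1.01, 1.05 and 1.28 (ΔUNG and ΔUNG_2 in DMSO, then under ATRi). Kifc3, a minus-end directed kinesin at chr8:95099828-95202812 (minus strand), had 23.0 and 22.1 FPKM in ΔUNG DMSO, 25.2 and 25.3 FPKM in ΔUNG_2 DMSO and 9.40 and 9.11 FPKM in control DMSO. Under ATRi the gap of Kifc3 was narrower, with 15.9 and 13.3 FPKM in ΔUNG, 17.7 FPKM in ΔUNG_2 and 8.24 and 8.76 FPKM in the control.

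The other 3 of these genes also had values above the median of the stretch. Arl2bp, a binding partner of the small GTPase ARL2, had 42.1 and 38.8 FPKM in ΔUNG DMSO, 39.3 and 41.2 FPKM in ΔUNG_2 DMSO and 24.8 and 23.2 FPKM in control DMSO. Its log2 fold change was between 0.73 and 0.75 in all 4 contrasts, the narrowest span of the 5. Crnde, a long noncoding RNA gene first described in colorectal tumours, had a mean log2 fold change of 0.82 over the 4 contrasts, and Fam192a had 0.82. Both were above the control in every clone library.

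Herpud1, a membrane protein of the pathway that degrades misfolded proteins of the endoplasmic reticulum, lies in the same stretch at chr8:94386438-94395377 (plus strand), and its upstream sequence is given above. It had 68.1 and 56.9 FPKM in ΔUNG DMSO, 59.5 and 56.8 FPKM in ΔUNG_2 DMSO and 34.1 and 37.0 FPKM in control DMSO. With ATRi it had 72.1 and 74.4 FPKM in ΔUNG, 66.8 FPKM in ΔUNG_2 and 38.2 and 30.7 FPKM in the control. The groups did not overlap in either treatment. Mt1, a metal-binding metallothionein, had 356 and 398 FPKM in ΔUNG DMSO, 316 and 320.3 FPKM in ΔUNG_2 DMSO and 194 and 202 FPKM in control DMSO. Got2, the mitochondrial aspartate aminotransferase that ends the stretch at chr8:95864134-95888547 (minus strand), had 89.6 and 90.2 FPKM in ΔUNG DMSO, 86.1 and 86.1 FPKM in ΔUNG_2 DMSO and 55.2 and 54.6 FPKM in control DMSO. For both genes every clone library was above every control library.

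Nlrc5, the activator of MHC class I transcription, lies in the middle of that stretch at chr8:94434356-94527272 (plus strand) and did not share its level. It had 1.03 and 0.810 FPKM in ΔUNG DMSO, 0.837 and 0.666 FPKM in ΔUNG_2 DMSO and 0.810 and 0.685 FPKM in control DMSO, and these ranges overlapped. With ATRi it had 1.39 and 0.998 FPKM in ΔUNG and 1.08 FPKM in ΔUNG_2, against 2.10 and 1.89 FPKM in the control. All 3 clone libraries under ATRi were below both control libraries. The log2 fold changes of Nlrc5 were 0.18 and 0.00 in DMSO and -0.57 and -0.66 under ATRi, where the stretch had a median of 0.61 for each clone.

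Of the 290 genes in the 4 raised stretches, 10 had a mean below 0 over the 4 contrasts, of which 6 were protein-coding. These were picked out after their values were seen. Besides Nlrc5 these were Nfix, a nuclear factor I transcription factor (mean -0.14), Adcy7, an adenylate cyclase (-0.09), Psmb10, an interferon-inducible immunoproteasome subunit (-0.08), Tldc1 (-0.03) and Cacna1a, a calcium channel subunit (-0.02). Psmb10, at chr8:105935735-105938444 (minus strand), had 6.71 and 5.45 FPKM in ΔUNG DMSO, 5.00 and 4.39 FPKM in ΔUNG_2 DMSO and 5.19 and 5.10 FPKM in control DMSO. Adcy7 had 13.8 and 12.3 FPKM in ΔUNG DMSO, 14.3 and 14.3 FPKM in ΔUNG_2 DMSO and 16.5 and 15.3 FPKM in control DMSO. For Psmb10 both ΔUNG libraries were above both control libraries and both ΔUNG_2 libraries below them, while all 4 Adcy7 clone libraries were below the control. Il15, an interleukin of T and natural killer cells, lies before the raised stretches and was near the minimum level, with a mean over the 4 contrasts of -0.41.

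In the flat stretch from Mon1b to Taf1c, 4 genes were below the control in all 4 contrasts and above 1 FPKM, and no other distal gene that the naming rule allows was. Nudt7, a peroxisomal coenzyme A hydrolase at chr8:114133557-114154739 (plus strand), had 2.67 and 3.03 FPKM in ΔUNG DMSO, 2.13 and 1.87 FPKM in ΔUNG_2 DMSO and 3.19 and 2.81 FPKM in control DMSO. Cenpn, a centromere protein at chr8:116921730-116941507 (plus strand), had 12.2 and 12.5 FPKM in ΔUNG DMSO, 11.1 and 10.4 FPKM in ΔUNG_2 DMSO and 12.9 and 12.9 FPKM in control DMSO. The differences of these genes were small, and those of Nudt7 overlapped in ΔUNG. Gcsh, a subunit of the glycine cleavage system, had a mean of -0.15 and Cmc2, a mitochondrial protein linked to cytochrome oxidase, -0.08. Cmc2 (minus strand) and Cenpn (plus strand) are neighbours that are transcribed away from each other. Mon1b, a membrane trafficking protein at the head of the stretch, had 8.90 and 8.15 FPKM in ΔUNG DMSO, 7.96 and 8.58 FPKM in ΔUNG_2 DMSO and 8.40 and 8.32 FPKM in control DMSO, which overlapped.

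**Figure D4:**
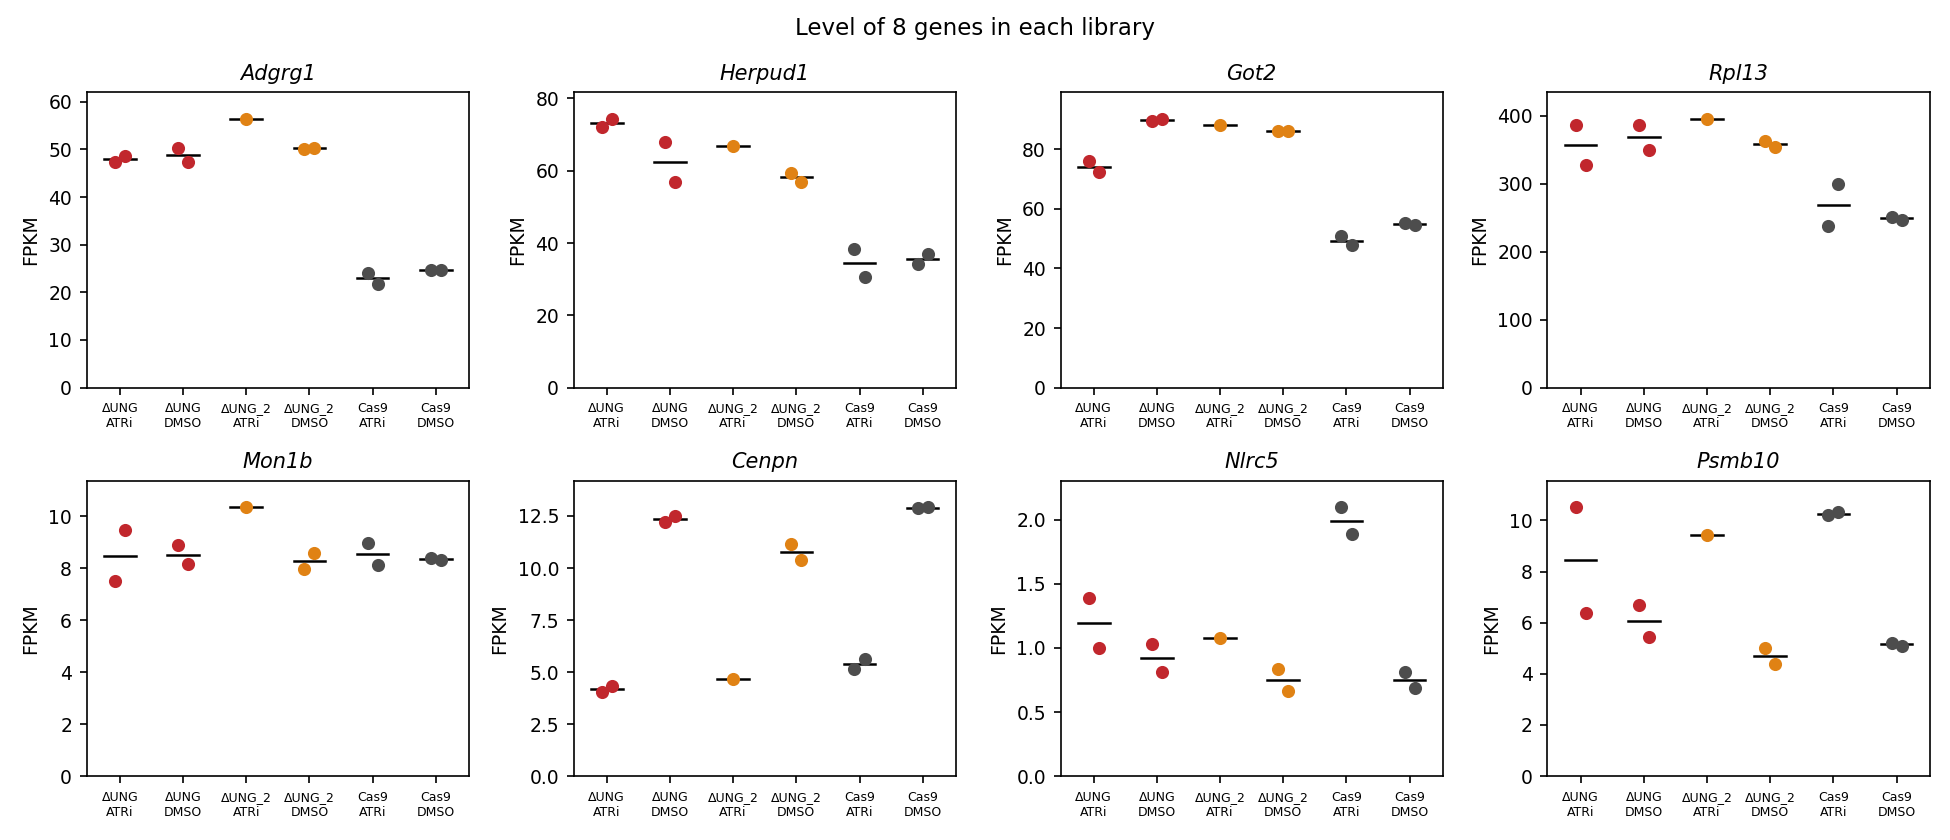
FPKM of 8 distal genes, with 1 point per library, a bar at each group mean and axes that start at 0. Adgrg1, Herpud1, Got2 and Rpl13 are higher in every clone library than in every control library, Mon1b is not, and Cenpn is lower under ATRi than in DMSO in all 3 lines.

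The last raised stretch holds Mc1r and Rpl13. Mc1r, at chr8:123407107-123410744 (plus strand), had 73.6 and 65.5 FPKM in ΔUNG DMSO, 71.6 and 66.1 FPKM in ΔUNG_2 DMSO and 47.6 and 47.5 FPKM in control DMSO. Rpl13, at chr8:123102350-123105244 (plus strand), had 386 and 349.9 FPKM in ΔUNG DMSO, 363 and 354 FPKM in ΔUNG_2 DMSO and 251 and 247 FPKM in control DMSO. Clone libraries were above control libraries for both genes. Of the 320 genes, 93 (29.1%) overlap another listed gene, and fragments of such pairs may be split between them. Itgb1, the last gene of the stretch, had 156 and 162 FPKM in ΔUNG DMSO, 153 and 158 FPKM in ΔUNG_2 DMSO and 134 and 139 FPKM in control DMSO. Gm26397, a small nucleolar RNA gene, had the largest mean of the 4 clone fold changes of all distal genes (1.92), and its control libraries ranged from 0.262 to 6.81 FPKM. The left-out window holds Cyba, an NADPH oxidase subunit, with 8.95 and 8.20 FPKM in ΔUNG DMSO, 7.41 and 7.98 FPKM in ΔUNG_2 DMSO, and 0.158 and 0 FPKM in control DMSO.

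The edge of the level rule shows how little it separates: Gm45854, at a mean of 0.501 FPKM, was the lowest gene kept, and 2210011C24Rik, at 0.471 FPKM, the highest left out. Of the 25 genes of a panel with known roles, 21 were kept. Cdh1 (E-cadherin) averaged 0.383 FPKM and Irf8, an interferon regulatory factor, 0.0291 FPKM, both under the minimum, and Cdh3 and Mt2 were not analysed here. In DMSO, 20 of the 21 panel genes were above the control in ΔUNG and 19 in ΔUNG_2, with medians of 0.36 and 0.33, which is close to those of all distal genes.

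The medians of all role lists were above 0 in both clones. A total of 131 of the 320 genes fell in 1 of 9 role lists, which were drawn up with earlier results of these data known. In DMSO the lists' medians for ΔUNG and ΔUNG_2 were 0.58 and 0.50 for 11 oxidative and metal stress genes, 0.47 and 0.39 for 12 adhesion, matrix and cell shape genes, and 0.40 and 0.32 for 19 genes of mitochondria and metabolism. They were 0.39 and 0.40 for 19 genes of tRNA synthetases, RNA processing and the ribosome, all of which were above the control in both clones. For 21 genes of trafficking, autophagy and protein degradation they were 0.33 and 0.36, for 22 replication and repair genes 0.30 and 0.30, for 12 transcription factors 0.29 and 0.33, and for 4 pigment receptor and tubulin genes 0.26 and 0.17. The 11 interferon, inflammation and cell death genes had the lowest pair of medians, 0.21 and 0.10, and under ATRi 0.09 and 0.05. Lists differ in which stretches their genes lie, and no test of one list against another was made.

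In DMSO, no difference between the clones was detected for any distal gene. Under ATRi, where ΔUNG_2 has 1 library, the clones were not tested against each other. Between ΔUNG_2 and ΔUNG in DMSO the median log2 fold change over the 320 genes was -0.02, with quartiles at -0.09 and 0.05, and it was -0.01 over all genes tested. No distal gene passed an adjusted p of 0.05 in limma, where 0.0177% of all genes tested were called higher and 0.0265% lower. With limma-voom the count of distal genes was also 0, and 27 of them had an unadjusted p under 0.05, against 6.04% of all genes. The smallest adjusted p was 0.192, for the zinc finger gene Zfp469, with 3.61 and 3.55 FPKM in ΔUNG_2 and 2.27 and 1.93 FPKM in ΔUNG (log2 fold change 0.65 ± 0.11 SE). By stretch, medians of ΔUNG_2 against ΔUNG were between -0.07 and -0.01 for the 6 stretches of 7 or more genes. The lowest was that of Mon1b to Taf1c, with quartiles at -0.17 and -0.05 and 4 of 20 genes above 0. Relative to the control, the median of that stretch was -0.09 and 0.01 in the ΔUNG_2 DMSO libraries and 0.12 and 0.04 in the ΔUNG DMSO libraries, which did not overlap. The stretch was drawn after the values were seen and picked as the lowest of 6. No difference between the clones is read from it. Absence of a call does not show that the clones are alike.

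ATRi moved distal genes in both directions. ATRi raised 45 distal genes and lowered 50 in ΔUNG (limma, adjusted p under 0.05), where 16.5% and 19.4% of all genes did. In ΔUNG_2, 67 rose and 40 fell, against 18.1% and 17.3% of all genes, and in the Cas9 control 55 rose and 46 fell, against 16.8% in each direction. As shares of the 320 genes these are 14.1% and 15.6% in ΔUNG, 20.9% and 12.5% in ΔUNG_2, and 17.2% and 14.4% in the control. These shares lie near those of all genes, with falls somewhat below them in each line and rises somewhat above them in ΔUNG_2. The ΔUNG_2 shares rest on 1 ATRi library, and no trait of the distal genes is read from any of them. The median ATRi fold change in ΔUNG_2 was 0.09 on the log2 scale over the distal genes and -0.005 over all genes. These differences from all genes were not tested. With libraries rescaled to an equal FPKM sum, 19 rose and 32 fell in ΔUNG, so that 37.3% of the calls were rises, against 47.4% without rescaling. The balance turned with median ratios, to 53 rises and 45 falls, and without ΔUNG DMSO replicate 1, to 42 rises and 37 falls. The count in ΔUNG was 58 without ΔUNG ATRi replicate 2. The count in ΔUNG_2 was 70 without ΔUNG_2 DMSO replicate 1 and 64 without replicate 2, and in the control it was 61 when Cas9 control DMSO replicate 1 was left out and 53 when replicate 2 was. In all 3 lines, 25 distal genes rose and 24 fell, against 9.80% and 9.74% of all genes.

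Junb, Mmp15, Zswim4 and Tubb3 were, with the microRNA gene Mir23a and predicted genes left out, the distal genes above 1 FPKM with the largest called rises in every line. Junb, an immediate early transcription factor of the AP-1 family at chr8:84974484-84978718 (minus strand), had 27.7 and 23.8 FPKM in ΔUNG ATRi against 7.71 and 4.93 FPKM in ΔUNG DMSO. It had 31.8 FPKM in ΔUNG_2 ATRi against 6.68 and 5.43 FPKM in ΔUNG_2 DMSO, and 19.3 and 26.5 FPKM in control ATRi against 6.41 and 5.58 FPKM in control DMSO. Every ATRi library was far above the DMSO libraries of its line, and the log2 fold changes were 1.97 ± 0.20 in ΔUNG, 2.31 ± 0.25 in ΔUNG_2 and 1.83 ± 0.20 in the control (limma adjusted p = 9.71e-05, 0.000175 and 0.000187 in that order). Mmp15, a membrane-bound matrix metalloproteinase at chr8:95352268-95375080 (plus strand), had 9.21 and 9.03 FPKM in ΔUNG ATRi against 2.88 and 2.45 FPKM in ΔUNG DMSO. It had 8.91 FPKM in ΔUNG_2 ATRi against 2.05 and 2.00 FPKM in ΔUNG_2 DMSO, and 4.53 and 4.11 FPKM in control ATRi against 1.41 and 1.28 FPKM in control DMSO. Its log2 fold changes were 1.61 ± 0.10 in ΔUNG, 1.90 ± 0.13 in ΔUNG_2 and 1.39 ± 0.10 in the control (limma adjusted p = 1.07e-05, 1.82e-05 and 2.27e-05 in that order), from different starting levels in the clones and the control.

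Tubb3, a beta tubulin typical of neurons at chr8:123411424-123422015 (plus strand), had 159.6 and 152 FPKM in ΔUNG ATRi against 64.9 and 66.2 FPKM in ΔUNG DMSO. It had 175 FPKM in ΔUNG_2 ATRi against 59.2 and 59.5 FPKM in ΔUNG_2 DMSO, and 113 and 124 FPKM in control ATRi against 54.2 and 60.1 FPKM in control DMSO. The groups were well apart, with log2 fold changes of 1.24 ± 0.07 in ΔUNG, 1.55 ± 0.09 in ΔUNG_2 and 1.05 ± 0.07 in the control (limma adjusted p = 6.81e-06, 9.63e-06 and 1.41e-05 in that order). Zswim4, a zinc finger protein gene, rose by 1.12 ± 0.15 in ΔUNG, 1.32 ± 0.18 in ΔUNG_2 and 1.12 ± 0.15 in the control on the log2 scale, and Calr by 0.91 ± 0.09 in ΔUNG, 1.16 ± 0.11 in ΔUNG_2 and 0.88 ± 0.09 in the control. Mir23a, the hairpin of a microRNA, was listed at 0 in 6 of the 11 libraries and above 0 in 4 of the 5 ATRi libraries, at 2.64 to 8.70 FPKM, and no fold is given for it.

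Among the falls, Gpt2, a mitochondrial alanine aminotransferase at chr8:85492576-85527560 (plus strand), had 9.21 and 8.93 FPKM in ΔUNG ATRi against 23.6 and 20.1 FPKM in ΔUNG DMSO. It had 8.59 FPKM in ΔUNG_2 ATRi against 21.1 and 21.4 FPKM in ΔUNG_2 DMSO, and 7.28 and 6.44 FPKM in control ATRi against 16.2 and 20.8 FPKM in control DMSO. Its log2 fold changes were -1.22 ± 0.12 in ΔUNG, -1.26 ± 0.15 in ΔUNG_2 and -1.36 ± 0.12 in the control (limma adjusted p = 7.30e-05, 0.000262 and 5.23e-05 in that order), with no overlap of the libraries in any line. Agt, the angiotensinogen gene, had log2 fold changes of -1.14 ± 0.10 in ΔUNG, -0.85 ± 0.12 in ΔUNG_2 and -1.09 ± 0.10 in the control. Ccsap, a centriole and spindle protein gene, had -1.34 ± 0.16 in ΔUNG, -0.78 ± 0.20 in ΔUNG_2 and -0.88 ± 0.16 in the control, and Adgre5, an adhesion receptor of the same class as Adgrg1, had -0.93 ± 0.11 in ΔUNG, -1.37 ± 0.14 in ΔUNG_2 and -0.47 ± 0.11 in the control, all past the threshold. The ΔUNG_2 call of Ccsap was lost without ΔUNG_2 DMSO replicate 1 (adjusted p = 0.0558), and the control's call of Adgre5 when Cas9 control ATRi replicate 2 (0.0664) or Cas9 control DMSO replicate 1 (0.0797) was left out.

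Among distal genes of replication, repair, chromatin and chromosome segregation, more fell than rose under ATRi in each line. Of 22 such genes, 13 fell and 1 rose in ΔUNG, 10 fell and 2 rose in ΔUNG_2, and 11 fell and 1 rose in the control. Over all genes tested, 19.4% fell and 16.5% rose in ΔUNG, 17.3% fell and 18.1% rose in ΔUNG_2, and 16.8% fell and 16.8% rose in the control. The list's medians were -0.38 in ΔUNG, -0.28 in ΔUNG_2 and -0.23 in the control, where all distal genes had -0.02, 0.09 and 0.02. The 8 genes that fell in all 3 lines were Cenpn, Asf1b, Orc6, Fanca, Mphosph6, Nup133, Rfwd3 and Smarca5, most of them with roles in centromeres, histone assembly, replication origins or crosslink repair.

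Cenpn, whose upstream sequence is given above, had 4.04 and 4.33 FPKM in ΔUNG ATRi against 12.2 and 12.5 FPKM in ΔUNG DMSO. It had 4.66 FPKM in ΔUNG_2 ATRi against 11.1 and 10.4 FPKM in ΔUNG_2 DMSO, and 5.13 and 5.61 FPKM in control ATRi against 12.9 and 12.9 FPKM in control DMSO. The log2 fold changes of Cenpn were -1.46 ± 0.08 in ΔUNG, -1.13 ± 0.10 in ΔUNG_2 and -1.19 ± 0.08 in the control (limma adjusted p = 6.01e-06, 5.20e-05 and 1.28e-05 in that order). Asf1b, a histone chaperone at chr8:83955507-83970197 (plus strand) that works during S phase, had 12.5 and 9.20 FPKM in ΔUNG ATRi against 28.4 and 27.9 FPKM in ΔUNG DMSO. It had 12.4 FPKM in ΔUNG_2 ATRi against 28.2 and 27.4 FPKM in ΔUNG_2 DMSO, and 11.1 and 9.39 FPKM in control ATRi against 20.2 and 19.8 FPKM in control DMSO. Its log2 fold changes were -1.35 ± 0.13 in ΔUNG, -1.13 ± 0.15 in ΔUNG_2 and -0.94 ± 0.13 in the control (limma adjusted p = 5.19e-05, 0.000630 and 0.000537 in that order). In DMSO the clones stood above the control for Asf1b, and under ATRi the ranges of ΔUNG and the control overlapped.

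Orc6, a subunit of the origin recognition complex, had 15.04 and 11.3 FPKM in ΔUNG ATRi against 21.5 and 24.9 FPKM in ΔUNG DMSO, with log2 fold changes of -0.80 ± 0.16 in ΔUNG, -0.83 ± 0.19 in ΔUNG_2 and -0.81 ± 0.16 in the control. Fanca, at chr8:123268300-123318576 (minus strand), had 7.33 and 6.43 FPKM in ΔUNG ATRi against 12.9 and 12.4 FPKM in ΔUNG DMSO, with log2 fold changes of -0.83 ± 0.08 in ΔUNG, -0.70 ± 0.10 in ΔUNG_2 and -0.58 ± 0.08 in the control. Gins3, a subunit of the replicative helicase complex that was not in the list, had -0.90 ± 0.11 in ΔUNG, -0.86 ± 0.13 in ΔUNG_2 and -0.41 ± 0.11 in the control, and its call in the control was lost when Cas9 control ATRi replicate 2 (adjusted p = 0.0894) or Cas9 control DMSO replicate 2 (0.103) was left out, and with an equal FPKM sum (0.0640). Kifc3 fell in the clones, with log2 fold changes of -0.62 ± 0.09 in ΔUNG and -0.50 ± 0.11 in ΔUNG_2, and had -0.12 ± 0.09 in the control, which missed the threshold (adjusted p = 0.332). The difference in response between clone and control missed it too for Kifc3, with -0.50 ± 0.12 for ΔUNG (adjusted p = 0.164) and -0.38 ± 0.14 for ΔUNG_2 (adjusted p = 0.308).

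**Figure D5:**
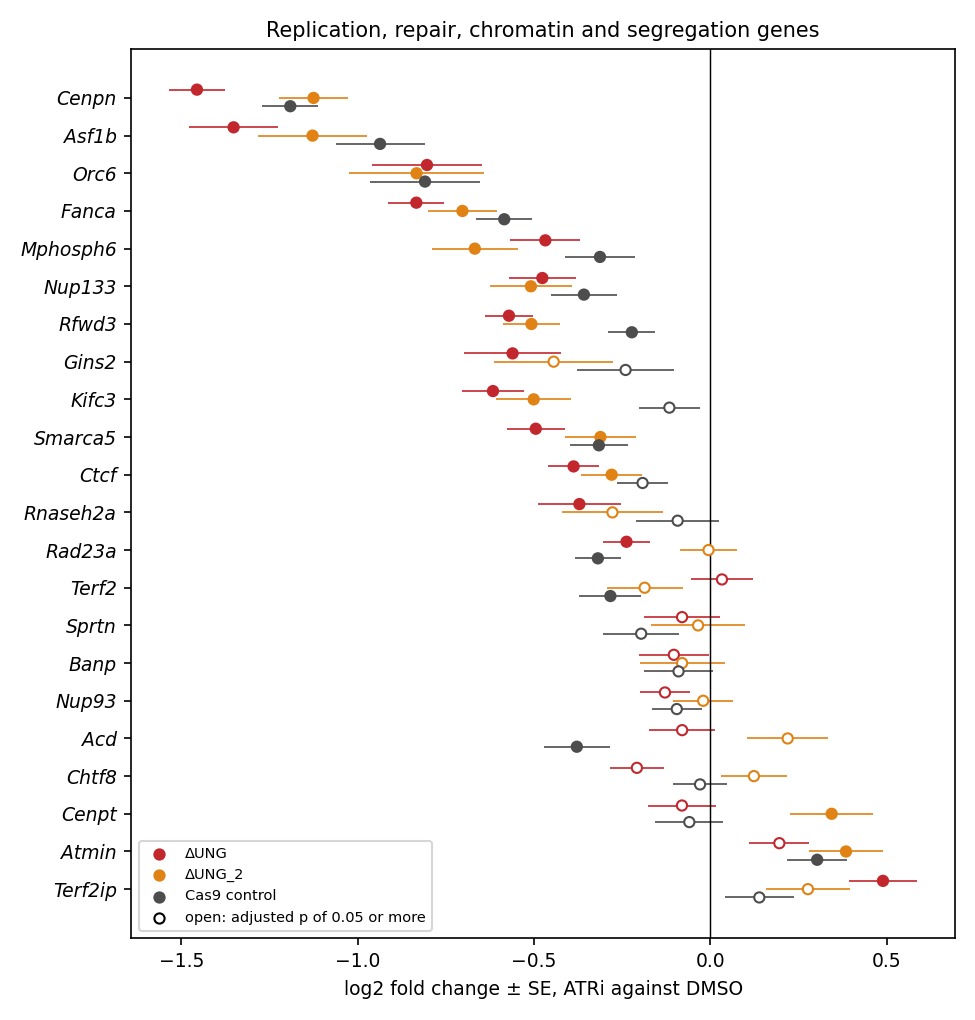
Log2 fold change, ATRi against DMSO, with its SE, for 22 distal genes of replication, repair, chromatin and chromosome segregation in 3 lines. Filled points passed an adjusted p of 0.05 in limma; 8 genes, among them Cenpn, Orc6 and Smarca5, fell in all 3 lines.

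The other role lists are given by their counts, which were not tested against each other or against all genes. Over all genes tested, ATRi raised 16.5% and lowered 19.4% in ΔUNG, 18.1% and 17.3% in ΔUNG_2, and 16.8% and 16.8% in the control. Of 12 adhesion, matrix and cell shape genes, ATRi raised 6 and lowered 2 in ΔUNG, 7 rose and 1 fell in ΔUNG_2, and 5 rose and 2 fell in the control, with Mmp2, Mmp15, Cmtm3 and Fhod1 among the rises in every line. Of 11 oxidative and metal stress genes, ATRi raised 2 and lowered 1 in ΔUNG, and 5 rose in ΔUNG_2 and 5 in the control, with Calr and Osgin1 in every line. Of 19 genes of mitochondria and metabolism, 4 fell in ΔUNG, and 3 fell and 3 rose in ΔUNG_2 and likewise in the control, with Gpt2, the amino acid transporter gene Slc7a5 and the oxygen sensor gene Egln1 falling in each. Of the 21 panel genes, ATRi raised 4 and lowered 7 in ΔUNG, 5 rose and 5 fell in ΔUNG_2, and 5 rose and 5 fell in the control.

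Of 11 interferon, inflammation and cell death genes, ATRi raised 1 and lowered 1 in ΔUNG, 4 rose in ΔUNG_2, and 4 rose and 1 fell in the control. The shares of all genes tested that rose and fell were 16.5% and 19.4% in ΔUNG, 18.1% and 17.3% in ΔUNG_2, and 16.8% and 16.8% in the control. Nlrc5 rose in the control by 1.00 ± 0.17 (limma adjusted p = 0.00217), and had 0.25 ± 0.17 in ΔUNG (adjusted p = 0.291) and 0.34 ± 0.21 in ΔUNG_2 (adjusted p = 0.239). The difference in response of Nlrc5 was -0.75 ± 0.24 for ΔUNG (adjusted p = 0.254) and -0.66 ± 0.27 for ΔUNG_2 (adjusted p = 0.374), so neither passed. Psmb10 rose by 0.94 ± 0.23 in ΔUNG_2 and by 0.93 ± 0.19 in the control, and had 0.41 ± 0.19 in ΔUNG (adjusted p = 0.120), where its libraries had 10.5 and 6.36 FPKM under ATRi. Without ΔUNG ATRi replicate 2 the ΔUNG value was 0.75 and passed (adjusted p = 0.00553), and without ΔUNG_2 DMSO replicate 2 the ΔUNG_2 value was 0.86 and did not (adjusted p = 0.0521).

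The response of distal genes to ATRi did not differ detectably between the clones and the control. Absence of a call does not show that the responses are alike, and few genes were called on any chromosome. For the difference in response, no distal gene passed an adjusted p of 0.05 in limma for either clone, and voom called 0 for ΔUNG and 1 for ΔUNG_2. At an unadjusted p under 0.05 there were 37 distal genes for ΔUNG and 38 for ΔUNG_2, against 13.5% and 12.3% of all genes. Over all genes tested the adjusted test called 0.0177% lower and none higher for ΔUNG, and 0.0353% in each direction for ΔUNG_2. The smallest adjusted p was 0.124 for ΔUNG, for the RNA helicase gene Ddx19a (-0.44 ± 0.09). The median difference over the 320 genes was -0.05 for ΔUNG and 0.06 for ΔUNG_2, against -0.02 and 0.01 over all genes tested. By stretch, the 41 genes from Crnde to Got2 had median differences of -0.02 and 0.03, and the 77 genes from Wfdc1 to Itgb1 had -0.07 and 0.08.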

How the data were processed

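Gene expression was measured by RNA-seq in 11 libraries, sequenced by Novogene per the labels' protocols. The authors deposited FPKM values for 14528 genes with positions and gene lengths, and per the submitters' processing notes reads were aligned with HISAT2. For the aligner's version, the counting tool, the annotation and the build, nothing was given in the sources used here. The authors also deposited counts of clean reads and the percent of bases at Q30, which was 92.44% to 93.98%. Of the read counts, 1 row was not matched to a sample and was not used.

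FPKM values were taken as deposited. Genes that averaged 0.5 FPKM or more were fitted on log2(FPKM + 0.5) with limma 3.58.1 in R 4.3.3, in 1 fit with a mean per group and an intensity trend. Two-sided p-values received Benjamini-Hochberg adjustment over all 11323 genes, with a threshold of 0.05. Fragments were rebuilt as whole multiples of the smallest step of FPKM times gene length (within 0.01 of a whole number for 100% of values in each library) and fitted with limma-voom as an alternative. The titles call libraries biological replicates, and the p-values reflect only how far these libraries spread. The fit was tried on simulated data with genes changed in ΔUNG ATRi. For ATRi against DMSO in ΔUNG it recovered 75% of 80 genes changed 1.5-fold, 94.55% of 55 changed 2-fold and 100% of 64 changed 4-fold. It also called 19 unchanged genes, with 11302 genes tested. The simulated spread was an assumed value, the same in every group, and 200 genes were changed. The spread between real replicates differed from group to group. Between their rebuilt fragments, chi-square per degree of freedom was 12.65 in ΔUNG ATRi and 28.69 in Cas9 control ATRi. In the DMSO groups it was 4.83 to 8.89. The recovered shares and false calls may therefore not hold for the real data. ΔUNG_2 ATRi has 1 library, assumed to vary like the other groups.

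Genes named are Ung, a panel of 25, the 5 largest rises and falls common to the 4 clone contrasts, up to 5 rises and falls in each tested comparison without overlap of groups (each at a mean of at least 1 FPKM), the genes at the boundaries, and the 2 highest genes of each role list. Other genes were named after their values were seen. The distal genes, the panel and the role lists were chosen with earlier results of these data known. Promoter motifs were searched on both strands in Python 3.11.15. The alternatives were other pseudocounts, filters, scalings, boundaries and fits, and leaving out each library.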

Additional observations from a re-analysis of the deposited data

How the results depend on the processing

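The alternatives were followed gene by gene for 51 ATRi results, and not for other named genes such as Smarca5, Slc7a5 and Mmp2. None of the 51 changed direction under any of the alternatives run, and 46 kept their side of the threshold throughout. The other 5 (Adgre5, Gins3, Ccsap and Psmb10) are given in the report. Medians of the distal genes below are for ΔUNG and ΔUNG_2 in DMSO and then ΔUNG and ΔUNG_2 under ATRi. They were 0.318, 0.318, 0.304 and 0.376 with a pseudocount of 1, and 0.233, 0.215, 0.234 and 0.296 with an equal FPKM sum. Under that scaling all genes tested had medians of -0.11, -0.13, -0.11 and -0.09, so relative to all genes the distal medians were 0.34, 0.34, 0.34 and 0.39. The gene Gm23935 held 10.3% to 26.3% of the FPKM sum. With a pseudocount of 0.1 the last 3 medians were 0.360, 0.349 and 0.421. For ΔUNG_2 in DMSO the median was 0.341 with a filter at 2 FPKM, 0.362 with voom, 0.330 with median ratios, 0.329 with a boundary at 75 Mb, 0.343 with one at 90 Mb and 0.340 with the window kept. Leaving out single libraries gave 0.3195 to 0.365, 0.3292 to 0.3384, 0.3187 to 0.3343 and 0.395 to 0.4044.

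Distal genes called under ATRi numbered 51 in ΔUNG, 44 in ΔUNG_2 and 41 in the control with an equal FPKM sum, and 35, 43 and 28 with a minimum log2 fold change of 0.58. Leaving out single libraries gave 58 to 99 in ΔUNG, 64 to 109 in ΔUNG_2 and 53 to 104 in the control, and 0 to 0 for both differences in response and for ΔUNG_2 against ΔUNG. Voom called 1 gene for the difference in response of ΔUNG_2. The cause of these changes was not tested. Replicate numbers paired no samples: deviations of same-numbered libraries correlated at -0.12 to 0.04 over pairs of groups. With the replicate number as a block the medians were 0.351, 0.336, 0.324 and 0.384, and 88, 93 and 91 genes were called under ATRi in ΔUNG, ΔUNG_2 and the control, with 0 in the other comparisons. With 2 libraries a group, low genes and small differences in response are the least certain.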
